A study of Mus musculus with 10 samples.

Results

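The Sprr2 genes encode small proline-rich proteins and lie side by side on mouse chromosome 3. The 10 members described here are Sprr2a1, Sprr2a2, Sprr2a3, Sprr2b, Sprr2d, Sprr2e, Sprr2f, Sprr2g, Sprr2h and Sprr2i, taken by gene symbol from a table of 56691 genes. They were selected from the knockout against wild type comparison of these same libraries, so their values in that comparison, and the counts called below, describe that choice and support nothing about it. RNA-seq was made from the esophageal epithelium of mice, in 5 wild-type libraries (WT1 to WT5) and 5 knockout libraries (KO1 to KO5). The knockout mice carried p63CreERT2, Mst1loxp/loxp and Mst2-/-, so that Mst2 was deleted in every cell and Mst1 could be deleted in the p63-expressing basal cells that the Cre reaches. Mice of both groups received tamoxifen at 100 mg/kg in 3 doses, with 2 weeks between doses, and RNA was taken after about 8 weeks. The labels give the wild-type mice no further allele, do not say whether they carried the Cre, and do not say how many animals or litters stand behind a library, so the spread between libraries may be partly technical.

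Small proline-rich proteins are cross-linked by transglutaminases into the cornified envelope, the tough protein layer beneath the membrane of the outermost squamous cells. Their bodies are built of short repeats rich in proline, cysteine and glutamine, and the number of repeats differs between members. Sprr2 genes are known for being induced in stressed, wounded or inflamed epithelia and after barrier defects, and Mst1 and Mst2 are the core kinases of the Hippo pathway, which restrain the coactivators YAP and TAZ.

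Some of the members are near copies of one another, and this bears on the values of single genes to different degrees. In GENCODE M21 the coding sequences of Sprr2a1 and Sprr2a2 were identical over 252 bases, and that of Sprr2a3 differed from them at 3 positions, counted from the first base of the coding sequence, with Sprr2a1 as the reference, namely G63A, G159T and A192T. The 2 sequences below are shown because Sprr2a3 and Sprr2a1 behaved differently in the libraries although they are 98.8% identical. Capitals mark an 18-base run, TGCCCTGAGCCTTGTCCT, which occurred 15 times in frame in the members' coding sequences and was found in 9 of the 10.
Sprr2a1: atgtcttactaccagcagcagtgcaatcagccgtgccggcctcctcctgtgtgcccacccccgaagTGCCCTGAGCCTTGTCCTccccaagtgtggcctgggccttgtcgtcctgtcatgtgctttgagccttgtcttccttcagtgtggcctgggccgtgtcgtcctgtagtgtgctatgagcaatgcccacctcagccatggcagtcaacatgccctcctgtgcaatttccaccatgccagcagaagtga
Sprr2a3: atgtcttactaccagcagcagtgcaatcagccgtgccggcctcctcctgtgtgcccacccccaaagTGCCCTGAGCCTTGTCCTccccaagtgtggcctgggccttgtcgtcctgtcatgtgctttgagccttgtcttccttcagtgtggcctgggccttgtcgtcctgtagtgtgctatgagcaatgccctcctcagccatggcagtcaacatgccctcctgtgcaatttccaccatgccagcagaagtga
Of the 31-base sequences in the exons of each member, 96.9% of those of Sprr2a1, 97.8% of those of Sprr2a2 and 73.6% of those of Sprr2a3 were also present in another gene. The share was 31.9% for Sprr2b, 22.7% for Sprr2i, 21.1% for Sprr2e and 10.3% for Sprr2d. It was 7.94% for Sprr2f, 3.07% for Sprr2g and 3.00% for Sprr2h, whose values are therefore the least exposed to how reads that match several copies were assigned. That handling is not given in the sources used here. The models of Sprr2a1 and Sprr2a2 also share 43 exon bases. Among the other members, Sprr2e and Sprr2i had the most similar coding sequences, at 97.0% identity. Sprr2g is a polymorphic pseudogene in GENCODE M21, with a transcript of 231 coding bases and another of 232, and its reads show transcription, not protein.

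The RefSeq promoter windows, which run from 250 bases before the start site to 50 after it on GRCm38.p6, were found for 9 of the 10 members and not for Sprr2g. By the matches in these windows the members fell into 2 kinds. In Sprr2b, Sprr2d, Sprr2e, Sprr2f, Sprr2h and Sprr2i the window held an AP-1 match (TGANTCA), an octamer match (ATGCAAAT) and a TATA box (TATAAA) at nearly fixed distances, and in Sprr2a1, Sprr2a2 and Sprr2a3 it held none of these. The 250 bases before the start are shown for Sprr2a3 and for 4 members of the other kind, on the plus strand, with these matches in capitals. The octamer stands on the opposite strand and so reads ATTTGCAT.
Sprr2a3, chr3:92285054-92285303: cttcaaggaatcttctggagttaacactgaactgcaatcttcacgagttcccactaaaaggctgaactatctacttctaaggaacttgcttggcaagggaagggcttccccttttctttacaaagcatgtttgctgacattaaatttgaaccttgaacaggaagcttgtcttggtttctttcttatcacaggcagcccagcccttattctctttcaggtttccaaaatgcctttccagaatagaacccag
Sprr2b, chr3:92316455-92316704: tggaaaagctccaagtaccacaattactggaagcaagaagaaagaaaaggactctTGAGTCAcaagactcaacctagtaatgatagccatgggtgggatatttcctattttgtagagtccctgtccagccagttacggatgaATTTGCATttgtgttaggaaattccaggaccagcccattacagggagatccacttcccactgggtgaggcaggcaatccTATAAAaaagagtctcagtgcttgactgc
Sprr2d, chr3:92338890-92339139: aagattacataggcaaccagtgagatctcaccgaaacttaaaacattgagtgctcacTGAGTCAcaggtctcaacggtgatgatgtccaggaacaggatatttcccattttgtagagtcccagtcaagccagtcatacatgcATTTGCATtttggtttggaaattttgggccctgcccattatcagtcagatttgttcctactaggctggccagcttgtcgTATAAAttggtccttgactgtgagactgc
Sprr2f, chr3:92364937-92365186: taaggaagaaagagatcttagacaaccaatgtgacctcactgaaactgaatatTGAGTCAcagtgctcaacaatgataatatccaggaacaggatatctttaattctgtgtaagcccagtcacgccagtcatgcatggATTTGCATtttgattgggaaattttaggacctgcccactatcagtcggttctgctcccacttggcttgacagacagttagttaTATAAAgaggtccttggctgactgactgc
Sprr2h, chr3:92385435-92385684: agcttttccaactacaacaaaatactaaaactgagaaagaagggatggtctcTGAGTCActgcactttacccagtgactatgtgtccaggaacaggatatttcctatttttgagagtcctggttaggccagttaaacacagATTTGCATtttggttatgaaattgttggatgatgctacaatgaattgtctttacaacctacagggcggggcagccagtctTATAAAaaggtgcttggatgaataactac
The AP-1 match began 193 bases before the start in Sprr2d, Sprr2e and Sprr2i, 195 in Sprr2b, 197 in Sprr2f and 198 in Sprr2h. The octamer began 108 to 112 bases before the start and the TATA box 29 bases before it in all 6. On either strand, an AP-1 match was present in 7.81% of 32851 mouse promoter windows of the same length, an octamer in 1.74% and a TATA box in 13.62%. The windows of Sprr2d and Sprr2e were 88.7% identical, those of Sprr2a1 and Sprr2a2 identical throughout, and those of Sprr2a3 and Sprr2f 45.3%. No match says only that the letters are not in this window, and for the Sprr2a genes the window itself is uncertain, since the nearest GENCODE M21 start lies 113 bases downstream of the RefSeq start for Sprr2a3 and 100 for Sprr2a2, and 36 upstream of it for Sprr2a1. The Sprr2b window is uncertain in the same way, with its M21 start 85 bases upstream. The Sprr2a windows end in or within a stretch that, with few changes, stands just before the TATA box of Sprr2b. The bases that follow in the Sprr2a genes were not searched. For Sprr2d, Sprr2e, Sprr2f, Sprr2h and Sprr2i the nearest starts of both annotations coincide.

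The other motifs were less regular. An ETS core (AGGAAG) was found in 4 of the 9 windows, against 35.35% of all windows, and a KLF match (GGGTG) in 3, against 57.52%. A STAT match (TTCNNNGAA) was found in 2, against 8.30%, and an NRF2 element (TGACNNNGC) in Sprr2f alone, against 12.39%. A TEAD match (GGAATG), the motif of the factors that carry YAP and TAZ, was in 0 of the 9, against 14.66%, and the interferon response motif was in 0 of the 9, against 3.44%. A match is a description of letters and says nothing about binding in these cells.

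**Figure D1:**
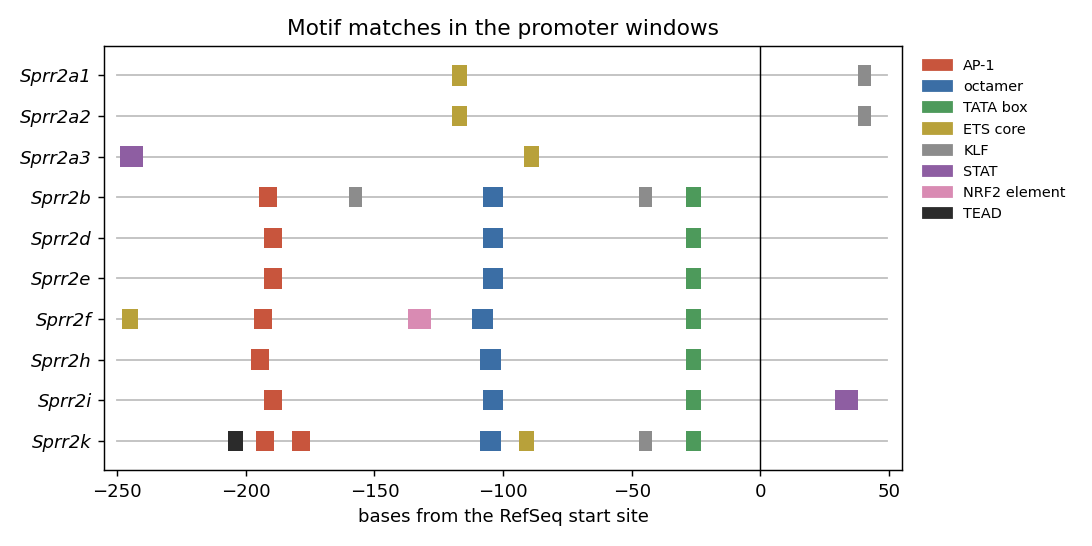
Motif matches in the promoter windows of the 9 members with a RefSeq window and of Sprr2k. The x axis gives bases from the RefSeq start site and each bar spans the matched bases on either strand. AP-1, octamer and TATA box stand in the same order and at nearly the same distances in 6 members and in Sprr2k, and none of the 3 is in the Sprr2a windows.

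Values are FPKM (fragment numbers corrected for gene length and library size), and 13060000 to 16440000 fragments per library were estimated from the steps between low values. The targeted kinases were read by their symbols Stk3 (Mst2) and Stk4 (Mst1). Stk3 was at 2.08 to 3.48 FPKM in wild type and at 0.05 to 0.25 in knockout, and Stk4 was at 16.96 to 22.73 in wild type and at 12.22 to 17.38 in knockout, where the groups overlap. A value over the whole Stk4 model does not show how much of the floxed part was lost. Esophageal epithelium markers summed to 68180 to 73870 FPKM in wild type and 65700 to 71620 in knockout. Krt13 and Krt4 made up most of that sum, so it says little about the other markers. Trp63, the gene of p63, was at 31.24 to 46.53 FPKM in wild type and 18.15 to 27.88 in knockout. Perp was at 1982 to 2707 and 1458 to 1718. Both were lower in every knockout library, and the groups overlapped for the other markers of the list. Summed markers of mesenchyme and muscle were higher in every wild-type library, at 5.09 to 14.1 FPKM against 0.28 to 1.98. Of these 18 genes, 17 were under 1 FPKM in every library and 5 were listed at 0 throughout, among them Pdgfrb, Cdh5 and Des, so that the difference rests on Dcn, at 4.42 to 13.55 FPKM against 0.06 to 1.12. In a limma fit across 11386 tested genes, 900 were called higher in knockout and 565 lower, where called means a Benjamini-Hochberg adjusted p under 0.05. The split was 651 higher and 746 lower with median-ratio scaling and 685 and 746 with quantile normalization. The number called higher was 495 without WT1, 436 without WT5, 538 without KO1, 572 without KO3 and 529 without KO5, and the number called lower was 363 without WT1, 357 without WT5 and 369 without KO5.

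The family as a whole was higher in every knockout library than in every wild-type library. Summed over the 10 members, the level was 18.7 FPKM in WT1, 33.6 in WT2, 230.3 in WT3, 65.5 in WT4 and 30.1 in WT5. It was 451 in KO1, 421 in KO2, 1843 in KO3, 829 in KO4 and 1524 in KO5. WT3 stood above the other wild-type libraries, KO3 and KO5 were the highest of all, and the lowest knockout library was still 1.83-fold above WT3. The means were 75.6 ± 88.2 FPKM (SD, n = 5) in wild type and 1014 ± 642 (SD, n = 5) in knockout, a ratio of 13.4, and 27.4 without WT3. On the scale of log2(sum + 1) the difference between the group means was 4.08, with a pooled SD within groups of 1.195. The sum over the 7 members other than Sprr2a1, Sprr2a2 and Sprr2a3 differed by 4.65 on the same scale. The 10 members held 0.00488% to 0.0579% of all FPKM in the wild-type libraries and 0.101% to 0.463% in the knockout libraries. In bulk RNA, more cells that make a transcript and more of it per cell cannot be told apart.

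**Figure D2:**
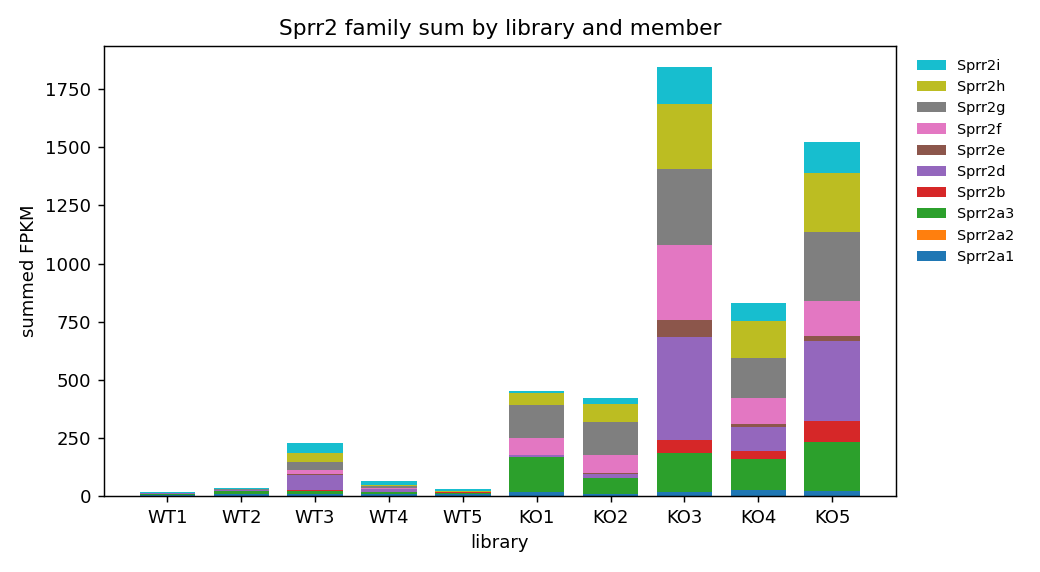
Summed FPKM of the 10 Sprr2 members in each library, stacked by member. The 5 knockout bars, from 421 to 1843 FPKM, all stand above the highest wild-type bar, WT3 at 230.3 FPKM.

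Sprr2f, Sprr2g and Sprr2h, which are neighbours in that order on the chromosome, went from near nothing in most wild-type libraries to some of the highest levels of the family. Sprr2f (ENSMUSG00000050635) was at 0.65, 0.52, 16.98, 3.40 and 0.40 FPKM in WT1 to WT5 and at 69.9, 78.3, 321.8, 111.2 and 149.9 in KO1 to KO5. Its groups did not overlap, WT3 was well above the other wild-type libraries, and the fitted log2 fold change was 5.34 (SE 0.73), the largest of the members. Sprr2g (ENSMUSG00000046203) was at 1.93, 4.21, 34.5, 5.83 and 0.65 FPKM in wild type and at 141.8, 141.9, 328.0, 171.6 and 294.5 in knockout. Here too every knockout library was above WT3, with a log2 fold change of 5.15 (SE 0.72). Sprr2h (ENSMUSG00000046259) was at 0.79, 2.29, 39.96, 5.05 and 1.94 FPKM in wild type and at 52.4, 79.0, 276.4, 157.6 and 256.9 in knockout. KO1 lay closest to WT3, the groups stayed apart, and the log2 fold change was 4.69 (SE 0.84). Because few of their sequences occur elsewhere, these are the members whose single values can be read most directly.

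Sprr2a3 was also high in all knockout libraries, but its range in wild type was narrow. Sprr2a3 (ENSMUSG00000074445) was at 4.53, 14.87, 9.12, 7.21 and 6.16 FPKM in WT1 to WT5 and at 150.1, 65.95, 167.0, 131.5 and 207.1 in KO1 to KO5. The groups were far apart, with WT2 and not WT3 the highest wild-type library, and the log2 fold change was 3.96 (SE 0.33), with an error below that of Sprr2f, Sprr2g and Sprr2h. Sprr2a1 (ENSMUSG00000078664), which differs from it at 3 coding bases, was at 6.38, 8.79, 10.58, 8.44 and 8.06 FPKM in wild type and at 17.15, 10.31, 18.49, 25.83 and 22.84 in knockout. KO2 was just below WT3, so the groups overlapped narrowly, and the log2 fold change was 1.03 (SE 0.21). Sprr2a2 (ENSMUSG00000068893), with the same coding sequence as Sprr2a1, was at 0.52 to 0.99 FPKM in wild type and 0.47 to 1.94 in knockout. KO1 was the lowest library of all, the other 4 knockout libraries lay above the wild-type range, and the gene was too low for the fit. How reads that match several of these copies were handled is unknown. The sum of Sprr2a1, Sprr2a2 and Sprr2a3 depends less on how such reads were divided, but would still miss any left uncounted. That sum was at 11.4 to 24.7 FPKM in wild type and 77.3 to 231.0 in knockout, without overlap.

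Sprr2b, Sprr2d, Sprr2e and Sprr2i were high in KO3, KO4 and KO5 and within or near the wild-type range in KO1 and KO2. Sprr2d (ENSMUSG00000042212) was at 1.07, 0.09, 65.3, 12.8 and 2.77 FPKM in wild type and at 10.23, 19.4, 442.9, 102.95 and 346.9 in knockout. KO1 and KO2 were below WT3 and the log2 fold change was 3.77 (SE 1.37). Sprr2i (ENSMUSG00000042157) was at 2.69, 1.55, 44.7, 18.1 and 8.18 FPKM in wild type and at 8.43, 23.5, 159.5, 77.95 and 133.0 in knockout. Again KO1 and KO2 were below WT3, and the log2 fold change was 2.47 (SE 1.00). Sprr2b (ENSMUSG00000050092) was at 0, 0, 4.16, 3.35 and 1.40 FPKM in wild type and at 0.68, 0.81, 54.7, 33.4 and 91.4 in knockout. KO1 and KO2 were below WT3, WT4 and WT5, with a log2 fold change of 2.66 (SE 1.23). Sprr2e (ENSMUSG00000055030) was at 0.10, 0.30, 4.08, 0.43 and 0 FPKM in wild type and at 0.24, 1.09, 73.1, 15.3 and 20.3 in knockout. KO1 was below WT2, WT3 and WT4, KO2 was below WT3, and the log2 fold change was 2.53 (SE 1.08). At this depth the low values of Sprr2e are a handful of reads, since 0.10 FPKM in WT1 comes to 1 estimated fragment and 0.30 in WT2 to 3.

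**Figure D3:**
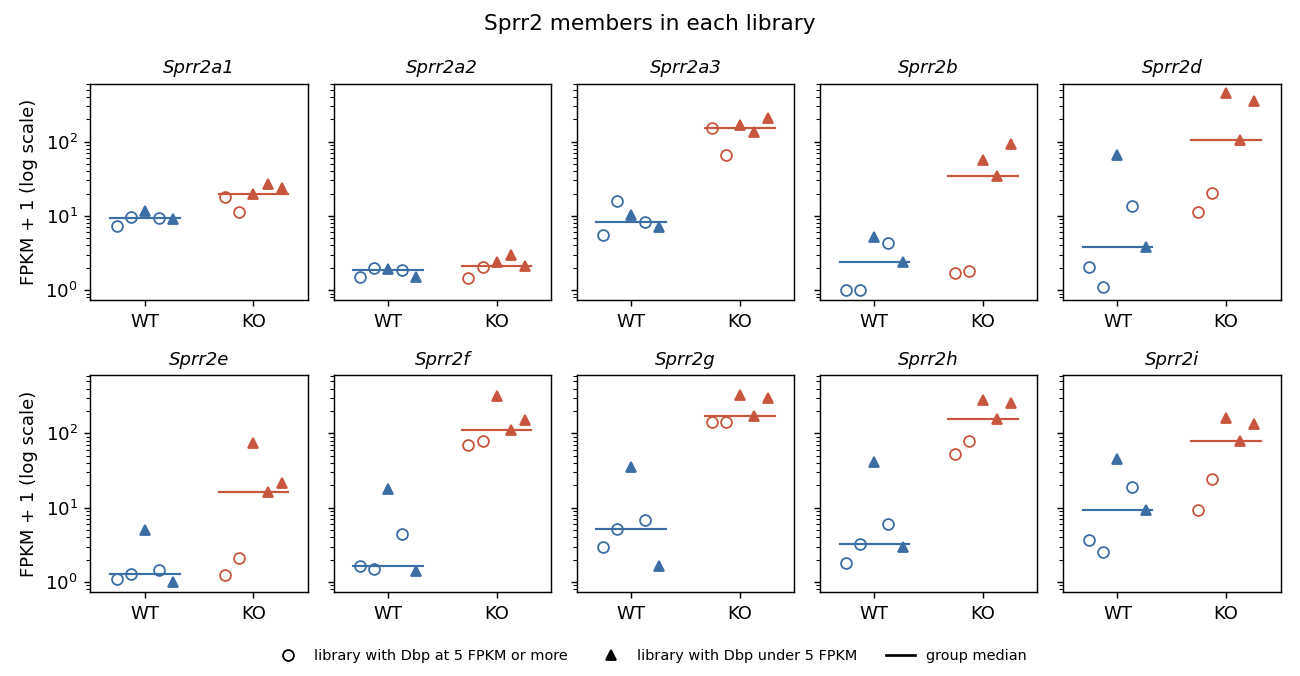
FPKM + 1 on a log scale for each Sprr2 member, with 5 wild-type (blue) and 5 knockout (red) libraries in order of number, the group median as a line, and the marker shape giving the Dbp class. Sprr2a3, Sprr2f, Sprr2g and Sprr2h have non-overlapping groups, whereas Sprr2b, Sprr2d, Sprr2e and Sprr2i are highest in KO3, KO4 and KO5, and KO1 and KO2 lie below the highest wild-type library, WT3.

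In all, 9 of the 10 members passed the filter of at least 1 FPKM in at least 5 libraries. Sprr2e and Sprr2f did so mainly through the knockout libraries, and in wild type Sprr2f reached 1 FPKM only in WT3 and WT4. Of the 9 tested members, 5 were called higher (Sprr2a1, Sprr2a3, Sprr2f, Sprr2g and Sprr2h) and 0 were called lower, where 7.90% of all tested genes were called higher. The 4 members whose every knockout library was above every wild-type library compare with 6.62% of all tested genes. As the members were chosen by this contrast, these counts describe the choice. Without WT3 the count called was 6, with Sprr2d added, and it was 5 without any other single library.

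The order of the members differed between groups. In the knockout libraries the median was highest for Sprr2g at 171.6 FPKM, then Sprr2h at 157.6, Sprr2a3 at 150.1, Sprr2f at 111.2, Sprr2d at 103.0 and Sprr2i at 77.95. Sprr2b followed at 33.4, Sprr2a1 at 18.5, Sprr2e at 15.3 and Sprr2a2 at 1.12. In the wild-type libraries the order of medians began with Sprr2a1 at 8.44, Sprr2i at 8.18 and Sprr2a3 at 7.21, and ended with Sprr2f at 0.65 and Sprr2e at 0.30. The ranges of neighbours in either order overlapped. FPKM divides by the length of the model, which is 2883 to 3003 bases for the Sprr2a genes and 609 to 784 for the others. In estimated fragments, without that division, Sprr2a3 was the most abundant member in every knockout library, with 2692 to 8984 fragments, or 29.2% to 64.3% of the family's total. The total of the 10 members was 580 to 2902 fragments in wild type and 6408 to 23299 in knockout, and the difference of its log2 value, scaled to library size, was 3.59.

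The libraries also differed in a way that the genotype does not explain. Dbp, a transcription factor driven by the circadian clock, was at 22.62, 12.04 and 16.35 FPKM in WT1, WT2 and WT4 and at 14.5 and 8.45 in KO1 and KO2. It was at 1.25 and 1.73 in WT3 and WT5 and at 0.84, 0.56 and 0.38 in KO3 to KO5. The labels give no hour of collection. Within the 5 libraries with Dbp at 5 FPKM or more, the family sum was at 18.7 to 65.5 FPKM in wild type (n = 3) and at 421 and 451 in knockout (n = 2), a log2 difference of 3.62. Within the 5 with less Dbp it was at 30.1 and 230.3 in wild type (n = 2) and 829 to 1843 in knockout (n = 3), a log2 difference of 3.97. In both classes every knockout sum was above every wild-type sum, for members that were selected by this contrast in these same libraries. In the class with high Dbp, 5 of the 10 members had every knockout library above every wild-type library, as did 26.7% of all tested genes, and for Sprr2b the values were 0.68 and 0.81 in knockout against 0 to 3.35 in wild type. In the class with low Dbp it was 10 of 10, against 26.8% of all tested genes. These classes were drawn from the values themselves and hold 2 or 3 libraries a genotype, so no test was made within them, and whether time of day plays a part was not tested. With the clock output genes as a covariate in the fit, the log2 fold change was 2.00 for Sprr2d, 0.95 for Sprr2b, 1.13 for Sprr2e and 1.16 for Sprr2i; all 4 were lower than without it. It was 4.65 for Sprr2f, 4.57 for Sprr2g, 3.63 for Sprr2h, 3.68 for Sprr2a3 and 0.78 for Sprr2a1.

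Markers of other cells are given for the same libraries. The 10 neutrophil markers summed to 4.01 to 45.5 FPKM in wild type and 32.5 to 465 in knockout, and S100a8, which keratinocytes also make under stress, was at 462.8 in KO3 and 422.6 in KO5. Without S100a8 the sum was 1.72 to 8.46 in wild type against 1.94 to 40.3 in knockout, and most of it came from Ltf and Cxcr2. Ltf reached 27.26 FPKM in KO2 and 37.92 in KO5, with only 0.06 to 0.59 in KO1, KO3 and KO4. Its highest wild-type value was 5.34, in WT4. For Cxcr2 the wild-type libraries spanned 1.41 to 8.04 FPKM and the knockout libraries 1.35 to 8.46. The other 7 genes were under 1 FPKM in every library, with Ly6g listed at 0 throughout and Mpo at most 0.11. Other leukocyte markers summed to 6.21 to 12.8 FPKM and 8.71 to 18.02, and 12 of these 15 genes, Ptprc among them, were under 1 FPKM throughout. Cd68 was the highest of them in every library, at 4.17 to 11.43 FPKM in wild type and 7.37 to 16.63 in knockout. Cd207 was at 0.46 to 3.04 and 0.60 to 1.62, and Csf1r at 0.19 to 1.70 and 0.21 to 0.90. Epidermal markers, of the cornified skin surface, summed to 1522 to 3808 FPKM in wild type and 738 to 2749 in knockout, and columnar gut markers to 29.1 to 72.1 and 42.2 to 80.2. Of the 10 columnar markers 7 were under 1 FPKM in every library, and Cdx2 and Tff3 were listed at 0 throughout. Epcam made up most of that sum, at 26.45 to 69.84 FPKM in wild type and 40.41 to 72.59 in knockout. The part of these cells, and of the mesenchyme and muscle above, in the Sprr2 values was not tested.

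Within genotypes, the members varied together to different degrees. Across the 10 libraries, taking each library's deviation from its genotype mean on the log2 scale, Sprr2f, Sprr2g and Sprr2h had pairwise r of 0.91 to 0.94. They were not set apart by this, since Sprr2d had r = 0.91 with Sprr2h and 0.895 with Sprr2f, though 0.745 with Sprr2g. Sprr2d and Sprr2i had r = 0.98, and Sprr2b had r = 0.89 with Sprr2e and also with Sprr2i. Sprr2a3 was the least like the others, with r between 0.21 for Sprr2i and 0.73 for Sprr2a1. With the sum of all the other members, r was 0.97 for Sprr2h, 0.94 for Sprr2f, 0.91 for Sprr2d and 0.38 for Sprr2a3. These values describe 10 libraries, share sequence and depth, and lean on WT3 and KO3, where most members are high.

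**Figure D4:**
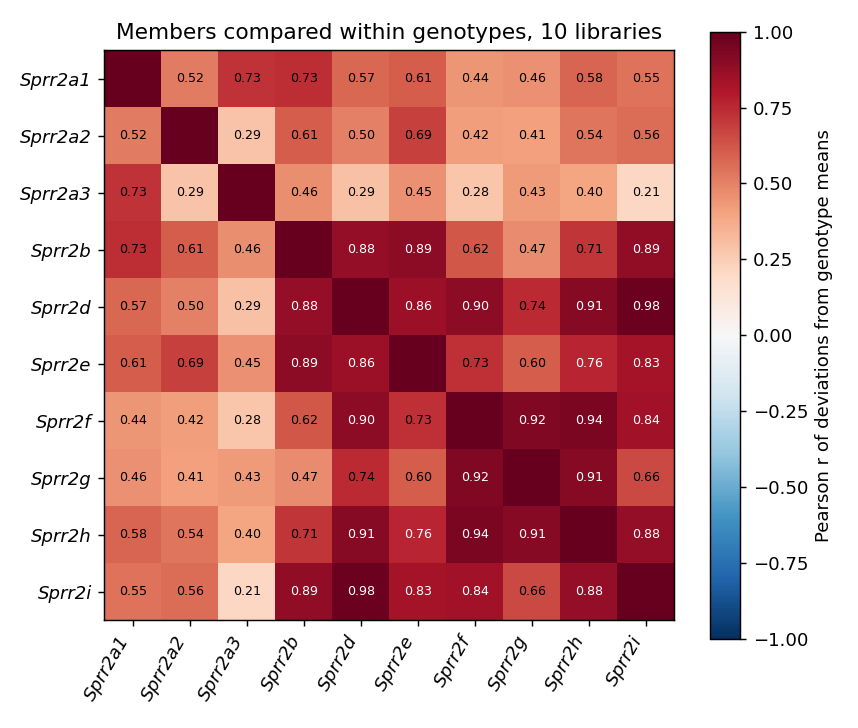
Pearson r between members of their deviations from the genotype means of log2(FPKM + 1), over 10 libraries. Sprr2f, Sprr2g and Sprr2h have 0.91 to 0.94 with one another, Sprr2d has 0.91 with Sprr2h, and the row of Sprr2a3 holds the lowest values, down to 0.21 with Sprr2i.

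The table holds 3 further Sprr2 rows. Sprr2j-ps was at 26.6, 30.1, 53.7, 28.5 and 34.3 FPKM in wild type and at 24.2, 55.3, 53.3, 51.7 and 65.2 in knockout, with a log2 fold change of 0.49 (SE 0.26), and was not called. Sprr2k was at 21.8, 26.2, 53.8, 5.09 and 13.1 FPKM in wild type and at 18.3, 55.1, 34.8, 54.7 and 50.1 in knockout, with a log2 fold change of 1.05 (SE 0.53), and was not called either. Both overlapped between groups and were higher in wild type than most members were. The Sprr2k window held the AP-1, octamer and TATA matches, with the octamer 109 and the TATA box 29 bases before the start. Sprr2c-ps was listed at 0 in 8 libraries and at 0.24 and 0.22 FPKM in KO4 and KO5.

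Other genes of the cornified envelope and of its gene cluster moved in both directions. Of 50 tested, 7 were called higher (14%, against 7.90% of all tested genes) and 8 lower (16%, against 4.96%), and the median log2 fold change was -0.03, against 0.06 over all genes. Sprr1a, a small proline-rich relative from the same cluster, rose most clearly, from 235.4 to 402.9 FPKM in wild type to 770.3 to 2291 in knockout, a log2 change of 1.94 (SE 0.29, adjusted p = 0.00129 in limma). S100a6, a calcium-binding protein, rose by 1.27 (SE 0.23, adjusted p = 0.00442), and Cstb, the protease inhibitor cystatin B, by 0.79 (SE 0.16, adjusted p = 0.00783). S100a11 rose by 0.74 (SE 0.16, adjusted p = 0.0106) and S100a7a by 0.67 (SE 0.16, adjusted p = 0.0157), on the log2 scale. Sprr3, named after its values were seen, was called higher at 0.87 (SE 0.22, adjusted p = 0.0219). The genes called lower were mostly late cornified envelope genes of the Lce1 group. No Lce3 gene was called, with log2 fold changes from -0.36 (Lce3c) to 0.61 (Lce3d). Lce1k was at 79.8 to 250.4 FPKM in wild type and 0.58 to 15.8 in knockout, a log2 fold change of -4.09 (SE 0.62, adjusted p = 0.00239). Lce1a2 had -1.69 (SE 0.39, adjusted p = 0.0176) and hornerin, Hrnr, -1.44 (SE 0.29, adjusted p = 0.00882). The number called lower was 3 without WT1, 4 without WT3, 2 without WT5, 3 without KO2, 5 without KO3 and 3 without KO5.

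**Figure D5:**
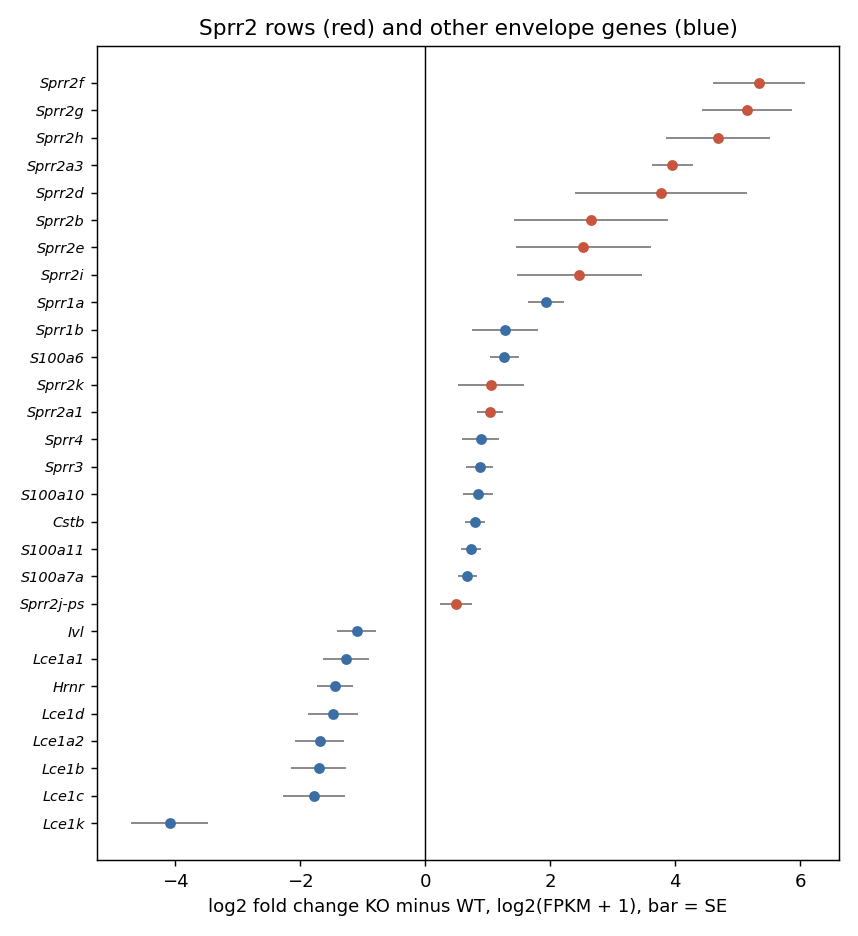
Log2 fold changes, knockout minus wild type on log2(FPKM + 1), with SE bars, for the tested Sprr2 rows (red) and for other envelope genes that were called or had the smallest p, with Sprr1b and Sprr4 (blue). Sprr2f at 5.34 and Lce1k at -4.09 are the ends of the range.

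Of 37 tested regulators reported to act on Sprr2 or squamous genes, 4 were called higher (10.8%, against 7.90% of all tested genes) and 1 lower (2.70%, against 4.96%). Their median log2 fold change was 0.05, against 0.06 over all genes. Fos and Junb, which pair into the AP-1 factor, were among those higher, Fos at 1.89 to 5.34 FPKM in wild type and 4.4 to 20.2 in knockout, a log2 change of 1.43 (SE 0.37, adjusted p = 0.0305 in limma). Junb had 0.63 (SE 0.17, adjusted p = 0.0278), Cebpb 0.67 (SE 0.19, adjusted p = 0.0419) and Sp1 0.36 (SE 0.10, adjusted p = 0.0376). Pou2f3, an octamer-binding factor of squamous epithelium, was the gene called lower, at 2.93 to 4.59 FPKM in wild type and 2.08 to 2.59 in knockout, with a log2 fold change of -0.48 (SE 0.11, adjusted p = 0.0174). The epithelial ETS factors Elf5 and Elf3 and the factor Ovol1 were not called, with 0.72 (SE 0.27), 0.37 (SE 0.14) and 0.50 (SE 0.19). The count called higher was 0 without WT1, WT5 or KO5, 1 without KO2 or KO3, 2 without WT3 or KO1, and 1 with median-ratio scaling or quantile normalization. Within genotypes, over 10 libraries, r with the Sprr2 sum was -0.13 for Fos, 0.37 for Junb, 0.53 for Cebpb, -0.36 for Sp1 and -0.58 for Pou2f3. For the other tested AP-1 genes, none of them called, it was 0.71 for Jund, 0.47 for Jun and 0.13 for Fosl2. By genotype, Jund had 0.73 in wild type and 0.80 in knockout, Jun 0.39 and 0.61, and Fosl2 -0.08 and 0.41. In the same order, Fos had -0.53 and 0.14, Junb 0.06 and 0.67, Cebpb 0.45 and 0.77, Sp1 0.01 and -0.80, and Pou2f3 -0.50 and -0.90.

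Genes of the NRF2 antioxidant response, whose factor is known to raise Sprr2 expression in mouse skin, were called in both directions. Of 19 tested, 2 were called higher (10.5%, against 7.90% of all tested genes) and 2 lower (10.5%, against 4.96%), and the median log2 fold change was 0.27, against 0.06 over all genes. Gstp1, a glutathione transferase, had 1.13 (SE 0.27, adjusted p = 0.0194 in limma) and Tkt, transketolase, 0.64 (SE 0.16, adjusted p = 0.0201). Me1, malic enzyme, had -0.73 (SE 0.12, adjusted p = 0.00209) and Hmox1, heme oxygenase, -0.92 (SE 0.24, adjusted p = 0.0267). Gsta4, G6pdx, Pgd and Gpx2 were not called, with log2 fold changes of 0.65, 0.30, 0.29 and 0.27. The count called higher was 4 without WT2 and 1 without WT5 or KO5, and the count called lower was 1 without WT1, WT5, KO1, KO2 or KO5.

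Of 11375 tested genes outside the family, 232 (2.04%) had r above 0.7 with the Sprr2 sum in each genotype separately, in deviations from the genotype mean. The highest r over all 10 libraries was that of Krt16, a keratin of wounded and hyperproliferative epithelium, at 0.95. Krt16 was at 3.05, 4.28, 156.5, 39.5 and 2.68 FPKM in WT1 to WT5 and at 16.3, 12.4, 459.4, 102.1 and 110.1 in KO1 to KO5. It was high in the libraries in which Sprr2d and Sprr2i were high and low in KO1 and KO2. The next were Bpnt1 (r = 0.93), a nucleotidase, Sptssa (0.93), a subunit of serine palmitoyltransferase, Pclaf (0.93), a PCNA-binding factor, and Rnaseh2c (0.93), a subunit of ribonuclease H2. Spdef (0.92), an ETS factor, Tiparp (0.92), an ADP-ribosyltransferase, and Gins3 (0.91), a subunit of the replication helicase, completed the 8. With rank correlation 100 genes passed the same limit, among them 6 of these 8, and without WT2 or WT5 the number was 369 and 349.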

How the data were processed

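The authors deposited a table of FPKM values per gene for 10 libraries, with all columns mapped to samples by their names. The tools cutadapt, HISAT2 2.0.1 and HTSeq 0.6.1, with mm9 as the build, are named in the submitters' processing notes. The annotation, strand setting and handling of reads that match several copies are not stated there or elsewhere, so Sprr2 copies and overlapping or antisense genes can share reads. No count table was used. The epithelium was freed of muscle and mesenchyme before RNA extraction and sequenced as read pairs, per the labels' protocols.

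The members and gene lists were chosen with earlier results of these data known. Values were fitted as log2(FPKM + 1) with limma 3.58.1 in R 4.3.3 (trend and robust empirical Bayes, genotype as the only term, knockout minus wild type) on the 11386 genes that reached 1 FPKM in 5 or more libraries, with Benjamini-Hochberg adjustment over all of them and a threshold of 0.05. This scale understates changes of low genes. The fit was tested on simulated data. Python 3.11.15 with pandas 2.3.3, numpy 2.4.6, Biopython 1.88 and matplotlib 3.10.9 did the rest. From envelope, regulator and NRF2 lists, the 8 genes with the smallest p were named, plus those in counts of 5 or fewer, and the 8 genes most like the Sprr2 sum. Library totals are those at which the FPKM of short genes (1 exon, at most 1200 bases) becomes whole fragments, within 0.01 beyond rounding, for 98.2% to 98.7% of values. Sequences are from GENCODE M21 (GRCm38) and RefSeq (GRCm38.p6), not mm9. No counting intervals are given, as these totals are estimates.

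Alternatives were pseudocounts of 0.1 and 5, no filter, a filter at 5 FPKM, median-ratio scaling, quantile normalization, no trend or robust estimation, a replicate block, a covariate of clock output genes (Dbp, Nr1d1, Per3, Tef), other forms of the sum, and leaving out each library. The sum in fragments and the values within Dbp classes were chosen after seeing the data.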

Additional observations from a re-analysis of the deposited data

Results flagged for a closer look

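Of 96 groups of 5 libraries examined (members, their sums and the other named genes), 15 held a library far from the rest by Dixon's ratio, with a critical value of 0.71. Chance alone exceeds that value in about 1 group in 20 where values are normally distributed. The ratio was taken on FPKM without a log, and many of these groups are skewed, so the chance rate here is unknown. It was not repeated on the log2 scale. Most were WT3. For the Sprr2 genes WT3 stood at 65.32 FPKM for Sprr2d against 12.77 in the next library, at 4.08 for Sprr2e against 0.43, and at 16.98 for Sprr2f against 3.40. It stood at 34.54 for Sprr2g against 5.83, at 39.96 for Sprr2h against 5.05, and at 53.74 for Sprr2j-ps against 34.26. The sum of the 10 members was 230.3 in WT3 against 65.45, and the sum of the 7 members other than the Sprr2a genes was 209.69 against 48.95. Among the genes most like the sum, WT3 was high for Krt16 (156.53), Spdef (3.67), Tiparp (22.83) and Gins3 (2.25). KO3 was far above the other knockout libraries for Sprr2e, at 73.1 FPKM, and for Krt16, at 459.39. KO2 was far above them for S100a7a, at 268.01. These flags are not independent, since the genes move together, and their cause was not tested.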

How the results depend on the processing

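The log2 difference of the Sprr2 sum, 4.08, stayed positive under all alternatives run: 3.94 to 4.11 with the pseudocounts, 4.01 and 4.00 with both scalings, 3.22 with the clock covariate, 3.19 as the mean of the members' log2 values, 3.59 in fragments, and 3.74 to 4.63 without single libraries. The members called numbered 5 under every filter, scaling and pseudocount and 5 to 6 without single libraries. The labels do not say whether equal replicate numbers mark paired libraries. In deviations from the group means, r of same-numbered libraries was 0.06, 0.42, 0.19, -0.24 and 0.11. For libraries with different numbers it ran from -0.35 to 0.40, so these values do not settle whether the libraries were paired. With the replicate block 7 members were called, the sum differed by 4.08, all genes gave 773 higher and 551 lower, envelope genes 11 higher and 4 lower, and NRF2 targets 4 higher and 1 lower. Without a filter 511 genes were higher, envelope genes lower numbered 3, regulators higher 0, and NRF2 targets 0 higher and 1 lower. With the filter at 5 FPKM 329 genes were lower and 0 regulators were lower. Median-ratio scaling gave 651 higher and 746 lower, quantile normalization 685 and 746, against 900 and 565, and 1 regulator higher each. The clock covariate gave 13 envelope genes lower and 1 NRF2 target higher. Without single libraries, all genes ranged from 436 to 1091 higher and 357 to 679 lower, envelope genes from 5 to 7 and 2 to 11, regulators from 0 to 5 and 1 to 1, NRF2 targets from 1 to 4 and 1 to 2, and genes like the sum from 221 to 369, against 100 with Spearman's rho. The cause of these moves was not tested. Of 699 values of single genes under alternatives, 631 kept direction and call, 54 lost the call, 14 gained it and 0 changed sign. For the members other than the Sprr2a genes, values under 0.254 to 0.327 FPKM in WT1 would be fewer than 3 fragments.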

Other observations

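Some genes of stressed squamous epithelium, singled out after their values were seen, varied with the Sprr2 sum within genotypes. S100a8 and S100a9 belong to the envelope genes above, S100a8 to the neutrophil markers too, and Krt6a to the esophageal markers, and none of the 3 was called in the limma fit (adjusted p = 0.0938, 0.0943 and 0.0743, for log2 differences of 3.38, 1.93 and 1.92). S100a8, an alarmin subunit, was at 2.29, 1.65, 33.7, 37.5 and 4.29 FPKM in WT1 to WT5 and at 23.4, 14.7, 462.8, 100.1 and 422.6 in KO1 to KO5, with r = 0.87 to the sum over 10 libraries. S100a9, its partner, was at 41.5 to 188.2 FPKM in wild type and 82.7 to 932.0 in knockout, with r = 0.80. Krt6a, the partner keratin of Krt16, was at 74.5 to 720.6 FPKM in wild type and 454.4 to 1335 in knockout, with r = 0.87. In these 3 genes KO1 and KO2 were within the wild-type range, as for Sprr2d and Sprr2i. For Krt6a, KO4 was also within that range, at 479.7 FPKM, unlike for Sprr2d and Sprr2i.

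The clock output genes varied the opposite way. Within genotypes over 10 libraries, r with the Sprr2 sum was -0.81 for Nr1d1, -0.78 for Per3, -0.75 for Tef and -0.69 for Dbp. Genes with r below -0.7 in each genotype numbered 475 (4.18%), more than the 232 above 0.7.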
